A study of Mus musculus with 32 samples.

Results

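The 54 genes described here are members of HALLMARK_MYC_TARGETS_V2, a curated set of genes that rise with the transcription factor MYC. The set file deposited with the data lists 58 mouse genes, and 58 were in the count table of 17757 genes. Myc, Srm, Hspd1 and Hspe1 were left out by the rule that chose the members, which left 54. The rule itself uses set membership and no measured value. By known role, 12 members assemble the large (60S) ribosomal subunit, 10 belong to the small-subunit processome or to 40S maturation, and 4 are nucleolar scaffold or rDNA transcription proteins. Another 5 act in RNA decay, tRNA metabolism or translation, 8 in DNA replication and the cell cycle, 6 in mitochondria, 7 in metabolism and transport, and 2 in signalling. The name of the set therefore covers more than ribosome biogenesis, and MYC binding was not measured.

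Ribosomes are built in the nucleolus. RNA polymerase I transcribes the rDNA there, the small-subunit processome folds and cleaves the growing precursor rRNA, and further assembly factors carry the pre-60S and pre-40S particles to the cytoplasm. MYC is a transcription factor that pairs with MAX at E-box sequences and is known for raising this whole programme in proliferating and malignant cells. When many ribosomes translate an mRNA at once, the mRNA sediments deep in a sucrose gradient as a polysome, whereas poorly translated mRNAs stay near the top.

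The cells were 4T1, a line from a mouse mammary carcinoma that spreads to the lung, kept as spheroids for 5 days in a medium made to resemble the lung environment. In ASP shSCR the cells carried a scramble shRNA and received 700 µM aspartate (ASP). In NoASP shSCR the same scramble line received no aspartate. In ASP shGRIN2D and ASP shDHPS the cells received 700 µM aspartate and carried an shRNA against Grin2d, which encodes an NMDA receptor subunit, or against Dhps, which encodes the enzyme that starts the hypusine modification of the translation factor eIF5A. All 3 lines were made by lentiviral infection of a population and puromycin selection, so each shRNA is represented by 1 selected population. Each condition had 4 spheroid pellets, and each pellet gave a polysomal library (RNA from fractions with more than 3 ribosomes) and a sub-polysomal library, 32 libraries in all. The deposited counts summed to between 12870563 and 25639437 per library, with a median of 18168765. No spike-in was described, so every level and ratio is relative to the other RNAs of the same library, and fewer cells of a kind cannot be told apart from less RNA per cell.

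The label of the cells was checked first. All 10 genes listed as markers of mammary carcinoma epithelium were in the table and none was at 0 in any library, with the keratin gene Krt8 between 550 and 3055 CPM (counts scaled to the same library total). Of the leukocyte markers, Ptprc was at most 0.879 CPM and at 0 in 4 libraries, and Csf1r was at most 0.316 CPM and at 0 in 21 libraries. The third leukocyte marker in the table, the lysosomal glycoprotein gene Cd68, was at 4.66 to 26.4 CPM and was higher in polysomes in all 4 conditions (log2 ratios of 0.50, 0.79, 0.90 and 1.26), and its part in the results below was not tested. The endothelial marker Pecam1 was at most 0.658 CPM. The fibroblast list could be checked by Pdgfra alone, at 6.58 to 35.6 CPM, since 4 of its 5 genes were not in the table.

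The knockdowns were checked in every library. Sub-polysomal Dhps was 42.9, 33.2, 43.3 and 41.3 CPM in ASP shSCR and 9.98, 10.8, 10.2 and 8.96 CPM in ASP shDHPS. Polysomal Dhps was 18.9, 43.2, 34.7 and 31.3 CPM in ASP shSCR and 9.36, 13.3, 11.2 and 8.42 CPM in ASP shDHPS. The groups did not overlap in either fraction, and the log2 difference was -2.01 ± 0.16 (SE, n = 4 against 4, edgeR adjusted p = 1.11e-08) in the sub-polysomal fraction and -1.64 ± 0.23 (edgeR adjusted p = 0.0167) in the polysomal fraction. Polysomal Grin2d was 3.44, 2.66, 4.03 and 3.44 CPM in ASP shSCR and 1.94, 1.13, 1.06 and 2.39 CPM in ASP shGRIN2D. These groups did not overlap either. The log2 difference of -1.14 ± 0.33 did not pass the test (edgeR adjusted p = 0.263), nor did the sub-polysomal difference of -0.88 ± 0.29 (edgeR adjusted p = 0.232).

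One library stood apart. An axis over 11046 genes ran from the mean sub-polysomal profile (0) to the mean polysomal profile (1) of the 3 conditions other than ASP shSCR. Polysomal replicate 1 of ASP shSCR was placed at 0.372 on it. The range was 0.777 to 1.19 for the remaining 15 polysomal libraries and -0.106 to 0.122 for the 16 sub-polysomal ones. The other 3 polysomal libraries of ASP shSCR, which did not set the axis either, were at 0.777, 1.02 and 0.998. That library belongs to the control group of 3 of the 4 comparisons between conditions, so results are also given without its pellet.

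Promoter sequence is shown because an E-box is the motif that MYC and MAX recognise. The promoters are RefSeq sequences of the mouse build GRCm38.p6, from 250 bases before to 50 bases after the annotated start. Of the 54 genes, 50 had a promoter there; Mcm4, Npm1, Rrp12 and Tcof1 had none. The E-box searched was CACGTG, which reads the same on both strands. It was found in 14 of the 50 (28%), against 8.09% of all 27025 genes with a promoter in the table and 11.2% of the 11444 of them that were also counted here. Cdk4 held 4 copies, as many as only 6 genes in the table reached or exceeded, and the other 13 genes (Dusp2, Exosc5, Grwd1, Imp4, Ipo4, Mybbp1a, Nop2, Pes1, Phb, Prmt3, Pus1, Utp20 and Wdr43) held 1. The sequences are those of Cdk4 (chr10:127063285-127063584, plus strand), a cell cycle kinase gene, and 3 genes of 60S assembly, Grwd1 (chr7:45830740-45831039, minus strand), Nop2 (chr6:125131633-125131932, plus strand) and Pes1 (chr11:3963725-3964024, plus strand), 5′ to 3′ with each E-box in capitals.
Cdk4: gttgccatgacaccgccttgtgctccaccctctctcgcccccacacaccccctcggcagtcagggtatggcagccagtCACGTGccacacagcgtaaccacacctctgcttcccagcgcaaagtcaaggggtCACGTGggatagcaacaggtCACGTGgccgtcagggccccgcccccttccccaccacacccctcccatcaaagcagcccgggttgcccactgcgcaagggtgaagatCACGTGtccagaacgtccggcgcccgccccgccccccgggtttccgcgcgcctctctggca
Grwd1: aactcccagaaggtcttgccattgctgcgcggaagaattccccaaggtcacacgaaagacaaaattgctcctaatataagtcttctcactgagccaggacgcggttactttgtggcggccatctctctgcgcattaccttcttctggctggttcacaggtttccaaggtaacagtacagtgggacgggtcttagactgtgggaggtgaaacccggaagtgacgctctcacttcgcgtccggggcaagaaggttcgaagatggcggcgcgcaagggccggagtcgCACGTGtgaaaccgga
Nop2: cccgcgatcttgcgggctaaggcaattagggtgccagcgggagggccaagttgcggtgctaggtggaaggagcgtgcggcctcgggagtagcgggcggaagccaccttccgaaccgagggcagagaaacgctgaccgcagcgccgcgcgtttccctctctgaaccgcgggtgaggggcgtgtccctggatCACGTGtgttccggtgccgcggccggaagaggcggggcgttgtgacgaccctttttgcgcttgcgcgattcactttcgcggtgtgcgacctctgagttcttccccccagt
Pes1: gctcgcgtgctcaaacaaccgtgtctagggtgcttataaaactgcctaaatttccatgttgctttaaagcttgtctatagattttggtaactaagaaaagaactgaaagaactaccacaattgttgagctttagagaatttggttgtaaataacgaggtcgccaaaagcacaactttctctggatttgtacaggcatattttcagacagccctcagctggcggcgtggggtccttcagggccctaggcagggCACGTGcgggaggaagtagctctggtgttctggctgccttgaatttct
The Cdk4 copies began 172, 118, 98 and 11 bases before the start, the Nop2 copy 60 bases before it, and the Grwd1 and Pes1 copies 34 and 2 bases after it. A match describes the letters in this window and not binding. The polysomal ratio described next had a median log2 of 0.68 over the 14 genes with the motif and 0.80 over the 36 without it.

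The first comparison asked how the mRNAs of these genes were divided between polysomes and lighter fractions within each condition. Most stood higher in polysomes. The members' share of all counts was 0.386% ± 0.0384 (SD, n = 4) in the sub-polysomal and 0.638% ± 0.158 in the polysomal libraries of ASP shSCR. It was 0.404% ± 0.0209 and 0.740% ± 0.105 in NoASP shSCR, 0.364% ± 0.0169 and 0.706% ± 0.0362 in ASP shGRIN2D, and 0.401% ± 0.0283 and 0.742% ± 0.0599 in ASP shDHPS. Every polysomal library had a larger share than every sub-polysomal library. The fractions thus did not overlap, while the polysomal shares of the conditions did.

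By gene, the log2 ratio of polysomal to sub-polysomal level was fitted over the pellets of a condition, and a gene was called where the Benjamini-Hochberg adjusted p over all 17757 genes was under 0.05. In ASP shSCR, 29 of the 54 genes (53.7%) were higher in polysomes, where 20.8% of all genes were, and 6 (11.1%) were lower, where 18.9% of all genes were. In NoASP shSCR, 35 (64.8%) were higher and 8 (14.8%) lower, against 23.7% and 20.6% of all genes. In ASP shGRIN2D, 34 (63.0%) were higher and 7 (13.0%) lower, against 23% and 20.4% of all genes. In ASP shDHPS, 35 (64.8%) were higher and 6 (11.1%) lower, against 21.8% and 21.3% of all genes. Without the pellet of replicate 1, ASP shSCR had 27 members higher and 8 lower. Since many of the 17757 genes had few counts, the 11046 with 10 or more counts in every library, 53 members among them, were taken as a second background, and of these 31.8%, 36.1%, 35.1% and 33.0% were higher in polysomes in the same order of conditions.

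Many calls were shared by the conditions. Of the 54, 27 (50%) were higher in polysomes in all 4 conditions, which was so for 15% of all genes and 23.4% of the 11046. Another 4 (7.41%), Plk4, Ndufaf4, Rrp9 and Dctpp1, were lower in all 4 conditions, against 14.2% of all genes and 21.1% of the 11046. In ASP shDHPS the call of Dctpp1 was lost without replicate 1, 2 or 4 (-0.48, -0.53 and -0.49) and that of Rrp9 without replicate 2 (-0.45). Among the genes higher in all 4 conditions whose values are given by name, 1 left-out pellet of the same condition also removed calls of Bysl and Noc4l (replicate 3), Tcof1 (3 or 4) and Nop2 (1, 3 or 4) in ASP shSCR, of Nop2 (4) in ASP shGRIN2D, and of Gnl3 (2) and Mphosph10 (2 or 4) in ASP shDHPS. A further 10 were higher in 1 to 3 conditions and 5 lower in 1 to 3, no member was called in both directions, and 8 were called in none. The same libraries enter a condition's calls for every gene, and the pellets of a condition are the replicates.

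**Figure D1:**
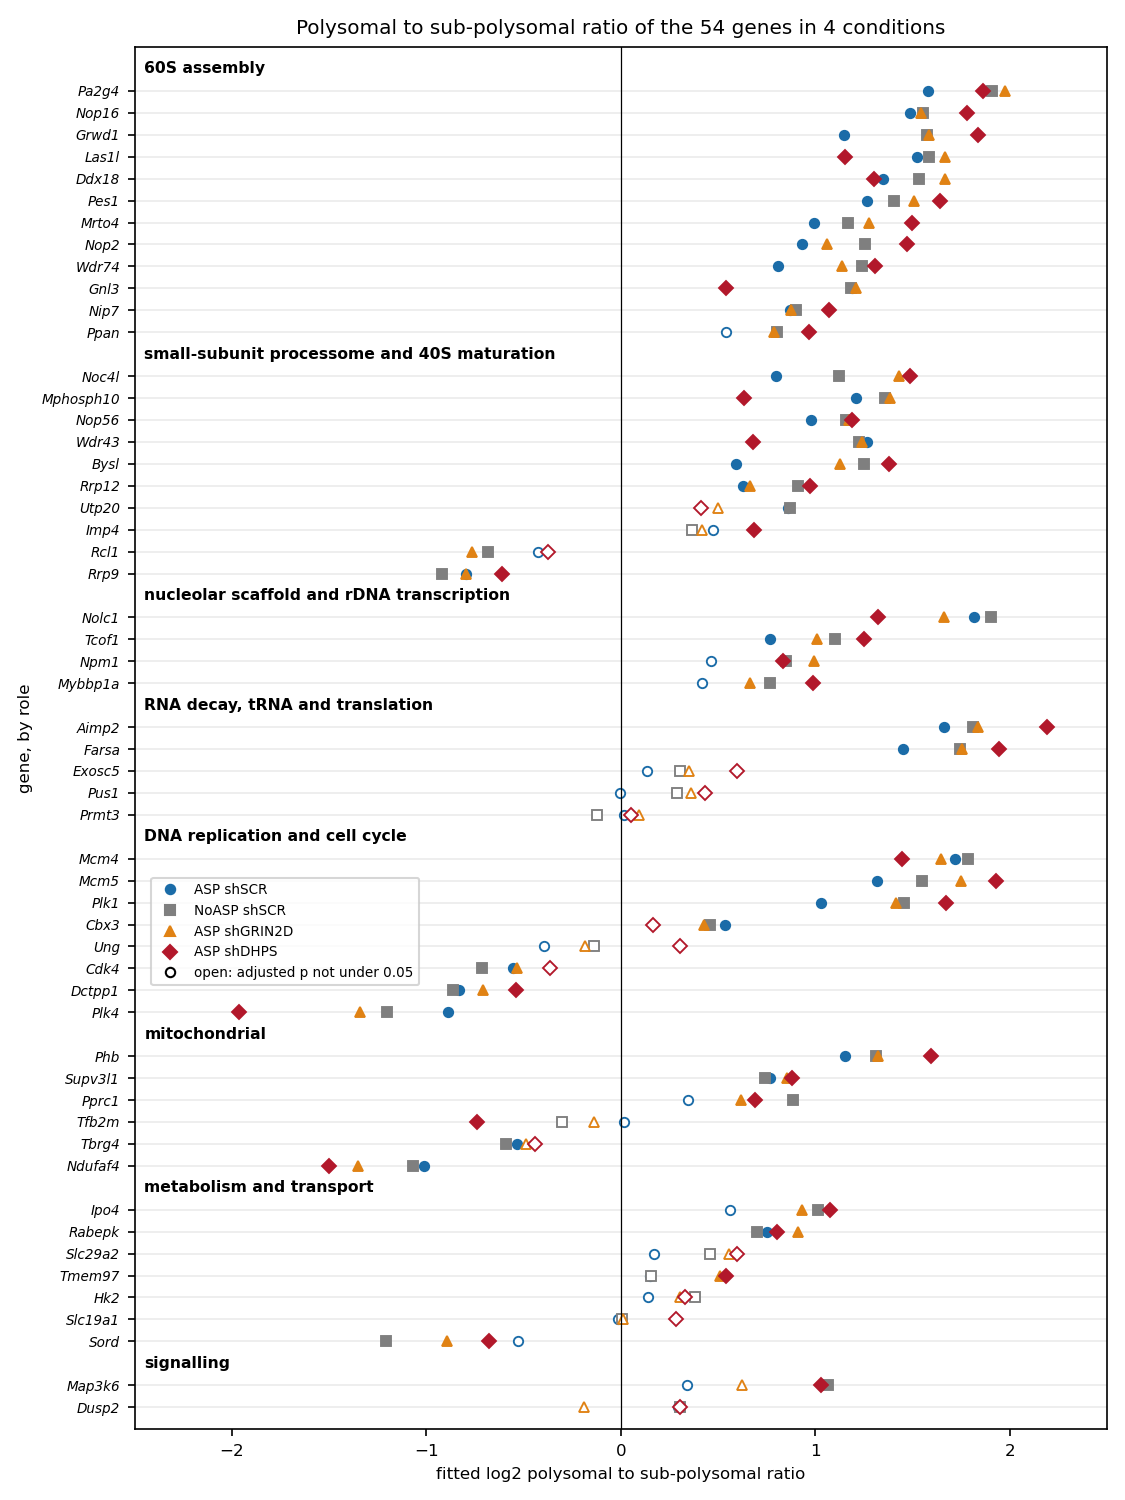
Fitted log2 ratio of polysomal to sub-polysomal level (horizontal axis) for each of the 54 genes (rows, grouped by known role) in the 4 conditions. Filled symbols passed an adjusted p of 0.05. The 60S assembly genes lie right of 0 in every condition, while Plk4, Ndufaf4, Rrp9 and Dctpp1 lie left of it with every symbol filled.

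As a group the members stood above other expressed genes in each pellet. The median over the 54 genes was 0.50, 0.58, 0.75 and 0.89 in the pellets of ASP shSCR, 1.12, 0.55, 0.83 and 1.30 in NoASP shSCR, 1.09, 0.55, 0.75 and 1.06 in ASP shGRIN2D, and 1.01, 0.73, 0.75 and 0.89 in ASP shDHPS. Over the 11046 genes it lay between 0.03 and 0.20 in all 16 pellets, so the members' median was above it in each pellet. Of single genes, 23 had a positive ratio in all 16 pellets and 3 (Plk4, Ndufaf4 and Dctpp1) a negative one in all 16. The same count was not made over all genes, so it does not show whether these numbers are particular to the members. The conditions' pellet medians overlapped.

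**Figure D2:**
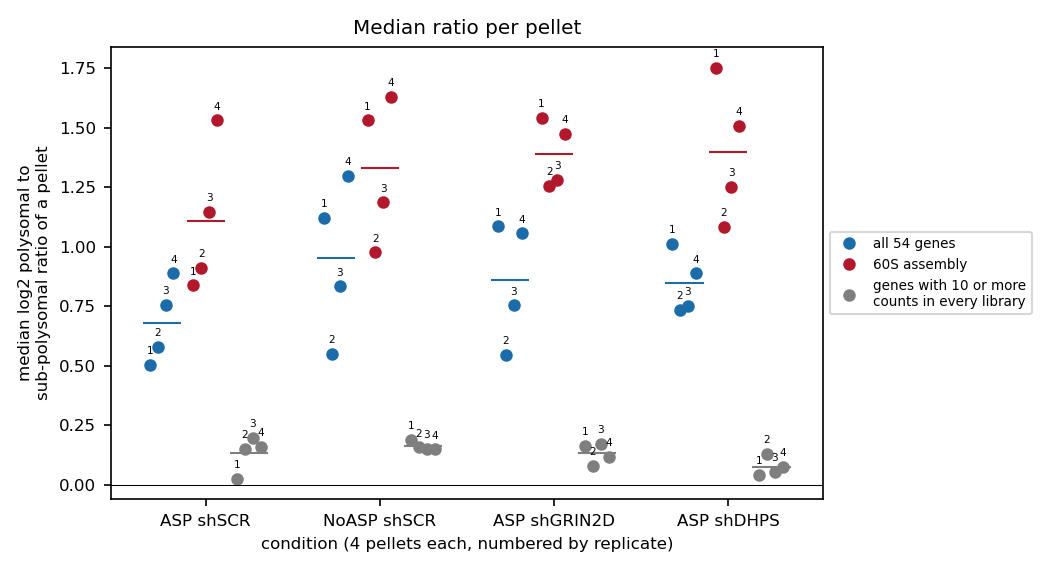
Median log2 polysomal to sub-polysomal ratio of each pellet (vertical axis, points numbered by replicate) for the 54 genes, the 12 genes of 60S assembly and the 11046 genes with 10 or more counts in every library, by condition. Bars are means of the 4 pellets; the 54-gene points, between 0.50 and 1.30, lie above the 11046-gene points in every condition, and within each pellet the 60S median is higher still.

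Nearly all of the 60S assembly genes were higher in polysomes in every condition. Of the 12, 11 were higher in polysomes in ASP shSCR and all 12 in the other 3 conditions, with median log2 ratios of 1.17, 1.33, 1.39 and 1.39. The exception was Ppan, an assembly factor of the pre-60S particle, whose ratio in ASP shSCR was 0.54 ± 0.22 (SE, edgeR adjusted p = 0.0518).

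Pes1, a member of the PeBoW complex needed for pre-60S maturation, had log2 ratios of 1.04, 0.70, 1.58 and 1.75 in the pellets of ASP shSCR, 1.45, 0.78, 1.46 and 1.91 in NoASP shSCR, 1.79, 1.28, 1.18 and 1.77 in ASP shGRIN2D and 2.08, 1.14, 1.47 and 1.88 in ASP shDHPS. All 16 were above 0 and the conditions overlapped, and the fitted ratios ran from 1.27 ± 0.21 (edgeR adjusted p = 2.43e-05) to 1.64 ± 0.21 (5.93e-07). Pa2g4, a growth-regulated protein found on pre-60S particles and at the ribosome, had the highest ratio of this role, with pellets at 1.43, 0.80, 2.01 and 2.08 in ASP shSCR and 2.21, 1.55, 1.59 and 2.11 in ASP shDHPS. Its fitted ratios of 1.58, 1.91, 1.97 and 1.86 correspond to about the same position in each condition, within the spread of pellets.

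Grwd1, a histone-binding protein that also acts as a ribosomal protein chaperone, had fitted ratios of 1.15, 1.58, 1.58 and 1.84, and Nop2, an rRNA methyltransferase, had 0.93, 1.25, 1.06 and 1.47. Nop2 varied widely between pellets: in ASP shSCR it was 1.21, -0.26, 1.13 and 1.59, and in ASP shGRIN2D 1.66, 0.08, 0.69 and 1.77. Replicate 2 was the lowest pellet of Nop2 in each of those conditions. Its call in ASP shSCR (edgeR adjusted p = 0.0126) was lost without replicate 1, 3 or 4.

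Gnl3, or nucleostemin, a GTP-binding nucleolar protein of dividing and stem cells, stood out among the 12. Its log2 ratios were 1.18, 1.19, 1.06 and 1.30 in ASP shSCR, 1.15, 1.10, 1.13 and 1.36 in NoASP shSCR, 1.46, 1.08, 1.32 and 0.97 in ASP shGRIN2D, and 0.70, 0.78, -0.01 and 0.69 in ASP shDHPS. All 4 ASP shDHPS pellets lay below every pellet of the other conditions, and the fitted ratio there was 0.54 ± 0.16 (edgeR adjusted p = 0.00811) against 1.19 to 1.21 elsewhere. The test of that difference is given with the comparison of conditions.

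The small-subunit group was mixed. Of its 10 genes, 7, 7, 6 and 7 were higher in polysomes and 1, 2, 2 and 1 lower, in the order of conditions used above. Nop56, a core protein of the box C/D snoRNPs that methylate rRNA, was higher in all 4, with fitted ratios of 0.98, 1.16, 1.17 and 1.19. Noc4l, Mphosph10, Wdr43, Bysl and Rrp12 were also higher in all 4. The Noc4l call in ASP shSCR was lost without replicate 3 (0.58). The Mphosph10 call in ASP shDHPS was lost without replicate 2 (0.53) or replicate 4 (0.48). The Bysl call in ASP shSCR is described below, and the Rrp12 calls were not followed in the fits that left out 1 pellet. Imp4 (0.47, 0.37, 0.42 and 0.69), a component of the processome with Mphosph10, passed the test in ASP shDHPS (edgeR adjusted p = 0.0049). It also passed in ASP shSCR without replicate 1 of ASP shSCR, ASP shGRIN2D or ASP shDHPS (0.62, 0.50 and 0.47), and in ASP shGRIN2D (0.55) without that condition's replicate 1. Its ratio difference between conditions passed in no comparison.

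Bysl, which acts in 40S maturation, had log2 ratios of 0.45, 0.39, 1.24 and 0.29 in ASP shSCR, 1.16, 1.09, 1.32 and 1.42 in NoASP shSCR, 1.53, 1.02, 0.84 and 1.11 in ASP shGRIN2D, and 2.05, 1.10, 1.16 and 1.21 in ASP shDHPS. Of the ASP shSCR pellets, 3 lay below every pellet of the other conditions and the pellet of replicate 3 lay among them. Its fitted ratio was 0.59 ± 0.19 (edgeR adjusted p = 0.0125) in ASP shSCR and 1.13 to 1.38 elsewhere, and without replicate 3 the ASP shSCR call was lost.

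Utp20, a large scaffold of the processome, had fitted ratios of 0.86 and 0.87 in the scramble conditions, which passed, and 0.50 (edgeR adjusted p = 0.0622) and 0.41 (0.128) in ASP shGRIN2D and ASP shDHPS. Its ratio differences from ASP shSCR did not pass (-0.36 ± 0.30 and -0.45 ± 0.30), and its ASP shGRIN2D ratio passed without replicate 1 of that condition (0.64) or without NoASP shSCR replicate 2 (0.50). A pair of genes in this group stood lower in polysomes. Rrp9, the U3 snoRNP protein of the processome, had ratios of 0.04, -1.23, -1.17 and -0.81 in ASP shSCR and -0.96, -1.28, -0.80 and -0.63 in NoASP shSCR, with fitted values of -0.79, -0.92, -0.79 and -0.61 in the 4 conditions (edgeR adjusted p = 0.0148 or less). Its one value above 0 came from the pellet whose polysomal library stood apart. Rcl1, a cyclase-like processome protein, passed in NoASP shSCR (-0.69) and ASP shGRIN2D (-0.77), with -0.42 and -0.37 in the other 2 conditions.

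The 4 genes of the nucleolar scaffold and of rDNA transcription were higher in polysomes in NoASP shSCR, ASP shGRIN2D and ASP shDHPS, and 2 of the 4 were in ASP shSCR. Nolc1, a phosphoprotein of nucleolus and Cajal body that carries snoRNPs, had the highest ratio in this group, with pellets at 1.18, 1.51, 1.80 and 2.78 in ASP shSCR, 2.01, 1.25, 1.77 and 2.58 in NoASP shSCR, 2.00, 1.06, 1.46 and 2.11 in ASP shGRIN2D and 1.69, 1.09, 1.04 and 1.46 in ASP shDHPS. All 16 were above 1. Tcof1 (treacle), a factor of rDNA transcription, had fitted ratios of 0.77, 1.10, 1.01 and 1.25, and Mybbp1a, a nucleolar protein, had 0.42 (edgeR adjusted p = 0.161), 0.77, 0.66 and 0.99.

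Npm1 (nucleophosmin), the abundant chaperone of the outer nucleolus, had log2 ratios of 0.14, -0.08, 0.82 and 0.97 in ASP shSCR, 0.62, 0.17, 1.20 and 1.39 in NoASP shSCR, 1.06, 0.79, 1.08 and 1.03 in ASP shGRIN2D and 0.84, 0.79, 0.41 and 1.29 in ASP shDHPS. The conditions overlapped. Its fitted ratio of 0.47 ± 0.22 in ASP shSCR did not pass (edgeR adjusted p = 0.0932), while 0.85, 0.99 and 0.83 in the others did. Without ASP shSCR replicate 2 it was 0.60 there and passed. Npm1 has many processed pseudogenes, as does Cbx3, so the assignment of their reads is uncertain.

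Among the 5 genes of RNA decay, tRNA and translation, 2 were higher in polysomes in every condition and the other 3 were called in none. Those 2 act in tRNA charging and had among the highest ratios of the 54 genes. Aimp2, a scaffold of the multi-tRNA synthetase complex, had pellets at 1.13, 1.91, 2.04 and 1.55 in ASP shSCR, 1.94, 1.88, 1.53 and 1.89 in NoASP shSCR, 1.66, 2.19, 1.84 and 1.66 in ASP shGRIN2D and 2.41, 2.37, 2.21 and 1.77 in ASP shDHPS, and its mean fitted ratio of 1.88 was the highest of all members. Farsa, the alpha subunit of phenylalanyl-tRNA synthetase, had fitted ratios of 1.45, 1.74, 1.75 and 1.94. Exosc5, a subunit of the RNA exosome, was nearer to 0, at 0.14, 0.30, 0.35 and 0.60, and the last of these missed the threshold (edgeR adjusted p = 0.0526) but passed in 3 of the 16 fits that left out 1 pellet.

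The 8 genes of DNA replication and the cell cycle split by gene. In ASP shSCR, NoASP shSCR and ASP shGRIN2D, 4 were higher (Mcm4, Mcm5, Plk1 and Cbx3) and 3 lower (Cdk4, Dctpp1 and Plk4), and in ASP shDHPS 3 were higher and 2 lower. Mcm4 and Mcm5, subunits of the replicative helicase, had fitted ratios of 1.72, 1.78, 1.65 and 1.45 and of 1.32, 1.55, 1.75 and 1.93. The mitotic kinase gene Plk1 had 1.03, 1.46, 1.42 and 1.67, whereas the centriole kinase gene Plk4 had the lowest mean ratio over the 4 conditions of all members.

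Plk4 had log2 ratios of -0.79, -0.37, -1.42 and -0.98 in ASP shSCR, -1.31, -1.33, -0.92 and -1.25 in NoASP shSCR, -1.74, -1.06, -0.81 and -1.76 in ASP shGRIN2D and -2.72, -1.52, -1.98 and -1.65 in ASP shDHPS. All 16 were below 0, and the 4 ASP shDHPS pellets lay below all 4 of ASP shSCR. The fitted ratios were -0.89, -1.20, -1.34 and -1.97 (edgeR adjusted p = 0.001, 2.57e-05, 6.84e-06 and 6.07e-08). Cdk4, the cyclin D-dependent kinase gene whose promoter holds 4 E-boxes, had pellets at -0.43, -0.18, -0.84 and -0.76 in ASP shSCR, -0.69, -0.67, -0.77 and -0.73 in NoASP shSCR, -0.93, -0.47, -0.33 and -0.41 in ASP shGRIN2D and -0.74, -0.39, 0.04 and -0.38 in ASP shDHPS. Of the 16 values, 15 were below 0, and the fitted ratios of -0.55, -0.71 and -0.53 passed while -0.36 in ASP shDHPS did not (edgeR adjusted p = 0.106). The Cdk4 call was lost in ASP shSCR without replicate 3 (-0.46) or 4 (-0.48) and in ASP shGRIN2D without replicate 1 (-0.42). Dctpp1, a pyrophosphatase that clears modified nucleotides from the dNTP pool, was lower in all 4 conditions, at -0.83, -0.86, -0.71 and -0.54.

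The 6 mitochondrial genes also split. Phb (prohibitin), a scaffold of the inner membrane, and Supv3l1, an RNA helicase of mitochondrial RNA decay, were higher in polysomes in all 4 conditions, with Phb at 1.15, 1.31, 1.32 and 1.60. Ndufaf4, an assembly factor of respiratory complex I, was lower in all 4, with pellets at -0.46, -0.47, -1.58 and -1.50 in ASP shSCR and -2.43, -1.25, -1.14 and -1.21 in ASP shDHPS. Tfb2m, the mitochondrial transcription factor B2, was near 0 in ASP shSCR (0.02), NoASP shSCR (-0.30) and ASP shGRIN2D (-0.14), and passed as lower in ASP shDHPS (-0.74 ± 0.20, edgeR adjusted p = 0.00358), where its pellets were -1.26, -0.54, -0.82 and -0.33.

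Of the 7 genes of metabolism and transport, 1, 2, 3 and 3 were higher and 0, 1, 1 and 1 lower. Rabepk was higher in all 4 conditions (0.75, 0.70, 0.91 and 0.80), and the importin gene Ipo4 in 3. Hk2, a hexokinase of glycolysis, was called in none (0.14, 0.38, 0.31 and 0.33). Sord, the sorbitol dehydrogenase gene, was lower in NoASP shSCR (-1.21), ASP shGRIN2D (-0.89) and ASP shDHPS (-0.68), and in ASP shSCR its pellets were 0.88, -1.51, -0.74 and -0.68. The positive value again came from replicate 1, and without that pellet the ASP shSCR ratio was -1.05 and passed. The call in ASP shDHPS was lost without any 1 of its 4 pellets (-0.75 to -0.58) and that in ASP shGRIN2D without its replicate 3 (-0.65). The signalling genes Dusp2 and Map3k6 were among the 3 members with the fewest counts, and of them Map3k6, a stress kinase gene, was higher in polysomes in NoASP shSCR (1.06) and ASP shDHPS (1.03). The ASP shDHPS call was lost without replicate 1 (0.69), and without ASP shGRIN2D replicate 2 the ratio there was 0.97 and passed.

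Other genes of the pathway, from lists chosen by role, were compared in the same fit. Of 76 ribosome biogenesis factors outside the set, 55, 61, 60 and 61 were higher in polysomes and 2, 1, 2 and 0 lower in the 4 conditions, with median log2 ratios of 1.07, 1.23, 1.21 and 0.99. The highest were Rpf2 (2.35 in NoASP shSCR and 2.14 in ASP shDHPS), a 5S RNP assembly factor, Dcaf13 (2.43 in ASP shGRIN2D) of the processome, and Nifk (1.94 in ASP shSCR), which binds Ki-67. Nop10 (-0.69) and Nhp2 (-0.57), both proteins of the box H/ACA snoRNPs, were lower in ASP shSCR. The 19 genes of the RNA polymerase I machinery were split, with 7, 6, 7 and 7 higher and 5, 4, 4 and 5 lower. Polr1e was higher in all 4 conditions (1.54, 1.80, 1.73 and 1.82) and Polr2l, a small subunit shared by the nuclear RNA polymerases, lower in all 4 (-1.58, -1.46, -1.39 and -1.16).

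Myc itself was higher in polysomes in each condition, at 0.68, 1.17, 0.97 and 1.06 (edgeR adjusted p = 0.014, 7.62e-05, 0.000708 and 0.000251). Its partner gene Max was near 0 (0.18, 0.07, -0.06 and 0.10) and was called in none. Of the 11 genes of the MYC network, 1, 2, 2 and 2 were higher and 4, 5, 5 and 6 lower, and the lowest was Mxd4, a MAX partner that opposes MYC, at -2.27, -2.50, -2.82 and -2.38. Of the other genes left out of the members by the rule, the mitochondrial chaperone gene Hspd1 was higher in all 4 conditions (1.08, 1.31, 1.39 and 1.14) and its small partner Hspe1 lower in all 4 (-0.97, -0.80, -1.05 and -0.88). Srm, the spermidine synthase gene, was lower in 3 (-0.67, -0.80 and -0.63) and not called in ASP shDHPS (-0.25).

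For orientation, 8, 8, 7 and 7 of 10 proliferation markers were higher in polysomes and 0, 0, 0 and 2 lower, with Ccna2 (-0.64) and Mki67 (-0.52) the ones lower in ASP shDHPS. The nuclear long noncoding RNA Malat1, which is not translated, was low in polysomes in every condition, at -1.71, -1.69, -2.29 and -3.27, and Neat1 at -1.29, -1.76, -1.99 and -1.90. The Malat1 ratio in ASP shDHPS differed from ASP shSCR by -1.56 ± 0.43 (edgeR adjusted p = 0.0945), and its part in the ratio differences below was not tested.

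The second set of comparisons asked whether the ratio of these genes differed between conditions, that is, whether omitting aspartate or silencing Grin2d or Dhps moved their mRNAs between the fractions. The 3 comparisons with ASP shSCR share its 4 pellets. No member passed in any of them in the edgeR fit. Omitting aspartate gave 0 of 54, where 0% of all genes passed, and 1 member had an unadjusted p under 0.05. Silencing Grin2d gave 0 of 54, where 0% of all genes passed, and 0 members had an unadjusted p under 0.05. Silencing Dhps gave 0 of 54, where 0.208% of all genes (37, all lower, and 0 to 159 when 1 of the 16 pellets was left out) passed, and 12 members had an unadjusted p under 0.05, 7 of them higher and 5 lower. ASP shDHPS against ASP shGRIN2D gave 0 of 54, where 0.00563% of all genes (1 gene) passed, and 5 members, all lower, had an unadjusted p under 0.05. Among all genes an unadjusted p under 0.05 was found in 1.93%, 3.22%, 13.6% and 6.41%. By DESeq2, a second count test, 0 members passed for NoASP shSCR and for ASP shGRIN2D, where 0 genes did, and 0 for ASP shDHPS against ASP shGRIN2D, where 37 of 12249 genes (0.302%) did, and 4 (7.41%) passed for ASP shDHPS against ASP shSCR, where 664 of 10872 genes (6.11%) did, a share near that of the members.

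In the edgeR fit no member's ratio difference passed singly, and the medians were above 0. The median was 0.15 for NoASP shSCR (38 of 54 positive), 0.17 for ASP shGRIN2D (41), 0.29 for ASP shDHPS (41) and 0.15 for ASP shDHPS against ASP shGRIN2D (38), beside 0.03, 0.02, 0.01 and 0.03 over the 11046 genes. Of those 11046, 53.5%, 52.6%, 50.7% and 53.4% were positive in the same comparisons. The 10 epithelial markers had medians of 0.21 (10 of 10 positive), 0.37 (9), 0.58 (10) and 0.23 (9) in the same order, none of them passed, and their part in the members' differences was not tested. Without the pellet of ASP shSCR replicate 1 the first 3 medians were 0.115, 0.130 and 0.297. Leaving out each of the 16 pellets in turn, the median ran from 0.034 (without NoASP shSCR replicate 4) to 0.235 for NoASP shSCR, from 0.076 (without ASP shGRIN2D replicate 1) to 0.212 for ASP shGRIN2D, from 0.205 to 0.359 for ASP shDHPS, and from 0.0066 (without ASP shDHPS replicate 1) to 0.181 for ASP shDHPS against ASP shGRIN2D. The standard error of a single gene's ratio difference had a median of 0.29, which does not measure the spread of a median over 54 genes. By pellet, the members' median ratio averaged 0.68 ± 0.17 (SD, n = 4) in ASP shSCR and 0.95 ± 0.33 in NoASP shSCR. It averaged 0.86 ± 0.26 in ASP shGRIN2D and 0.85 ± 0.13 in ASP shDHPS. By these means NoASP shSCR, and not ASP shDHPS, stood furthest from ASP shSCR, and the pellets overlapped.

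Bysl had the smallest unadjusted p of the members for NoASP shSCR, 0.66 ± 0.26 (edgeR adjusted p = 1), and for ASP shGRIN2D, 0.53 ± 0.26 (edgeR adjusted p = 1). For ASP shDHPS the difference was 0.79 ± 0.26 (edgeR adjusted p = 0.167). The 3 lower pellets of the shared ASP shSCR control enter each of these differences. Noc4l, a 40S factor that binds Nop14, was next for ASP shGRIN2D, at 0.63 ± 0.31. Without ASP shGRIN2D replicate 1 the differences in that comparison were 0.38 for Noc4l and 0.36 for Bysl. Sord was next for NoASP shSCR, at -0.68 ± 0.37. The Sord difference was -0.20 without ASP shSCR replicate 1.

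For Dhps silencing, Plk4 had the smallest p, with a ratio difference of -1.08 ± 0.29 (edgeR adjusted p = 0.0884), followed by Bysl and by Gnl3 at -0.65 ± 0.23 (edgeR adjusted p = 0.201). The others with an unadjusted p under 0.05 and a higher ratio were Ung (0.70), Grwd1 (0.69), Noc4l (0.69), Aimp2 (0.53), Mrto4 (0.51) and Wdr74 (0.50). Those with a lower ratio were Tfb2m (-0.76), Wdr43 (-0.59) and Mphosph10 (-0.58). None of these others passed the edgeR adjusted test. By DESeq2, Plk4 (-1.03), Bysl (0.83), Gnl3 (-0.60) and Mrto4 (0.56) passed. With replicate number added to the edgeR fit as a block across conditions, Plk4 alone passed, where 231 of all genes (1.3%) did. Against ASP shGRIN2D, Gnl3 had the smallest p, at -0.67 ± 0.23 (edgeR adjusted p = 0.493), followed by Mphosph10 at -0.75 ± 0.28 (edgeR adjusted p = 0.554). The 4 Mphosph10 pellets of ASP shDHPS were 0.49, 0.92, 0.01 and 1.09, all below the 1.36, 1.25, 1.52 and 1.38 of ASP shGRIN2D.

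**Figure D3:**
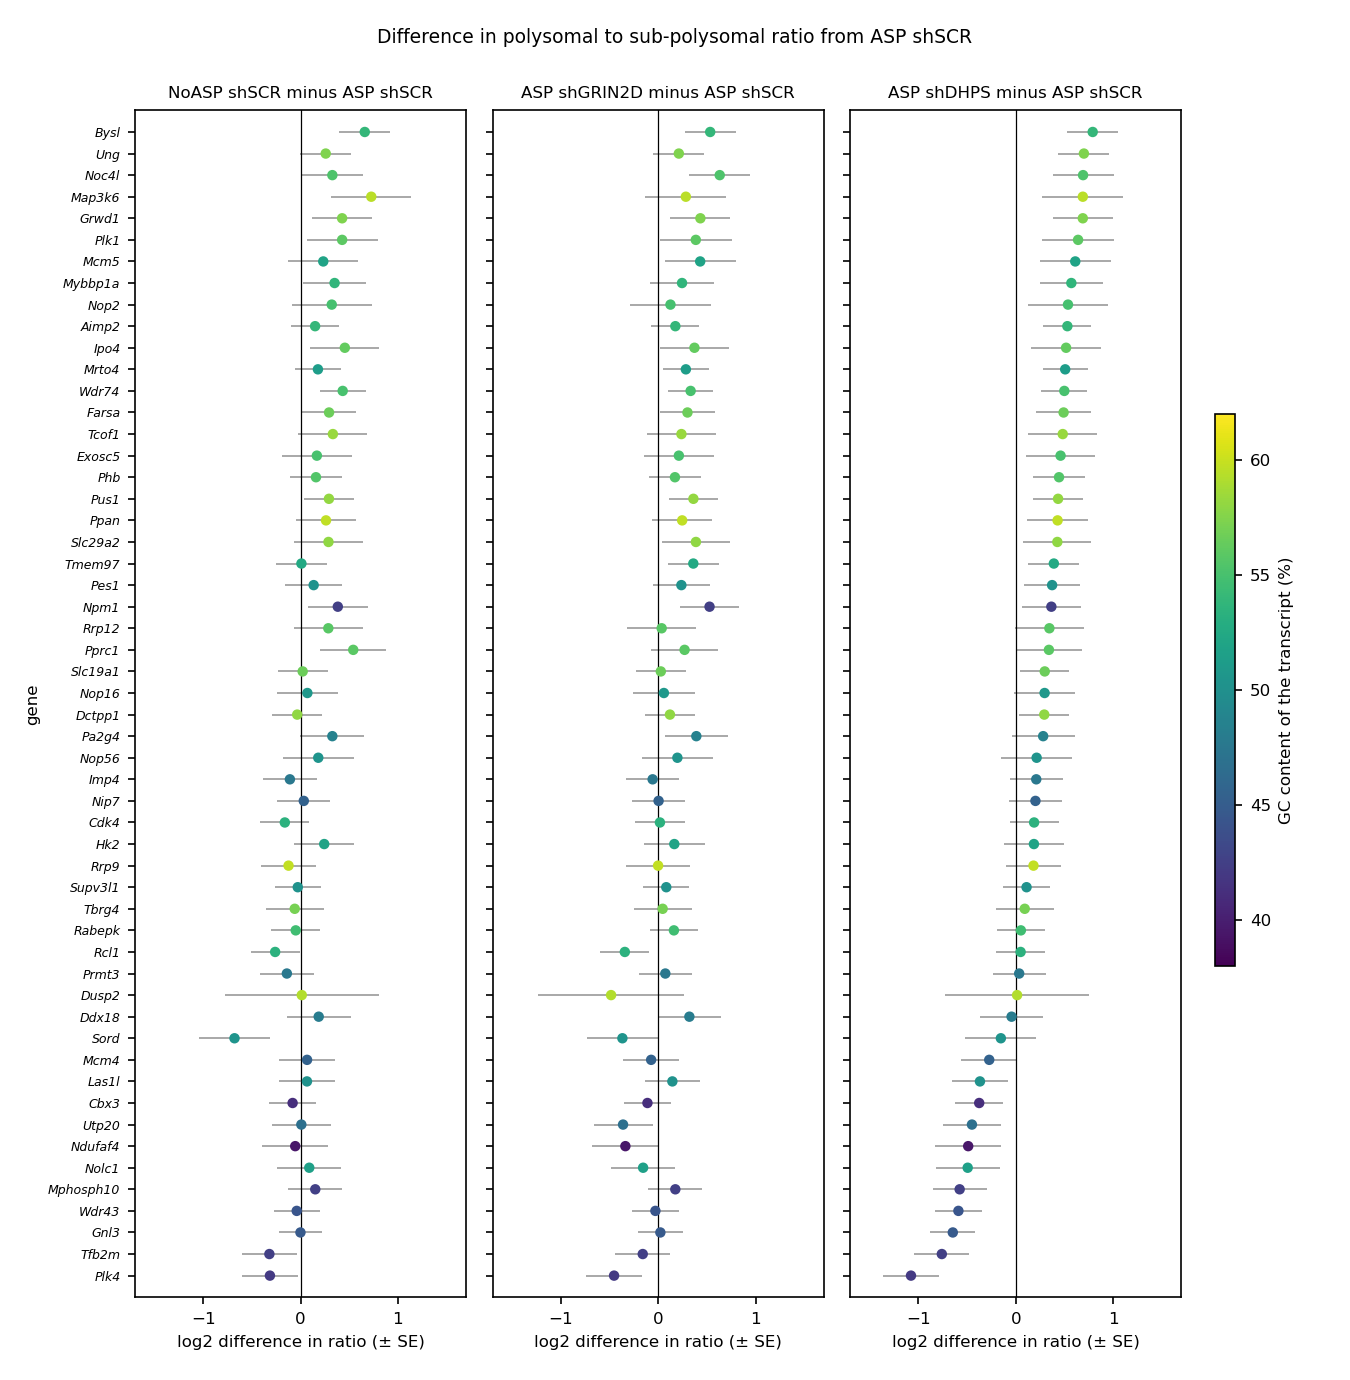
Difference in log2 polysomal to sub-polysomal ratio from ASP shSCR (horizontal axis, points with standard error bars) for each of the 54 genes (rows) in NoASP shSCR, ASP shGRIN2D and ASP shDHPS, coloured by the GC content of the transcript in percent. None passed an edgeR adjusted p of 0.05, whereas Plk4, Bysl, Gnl3 and Mrto4 passed by DESeq2 in ASP shDHPS. In the ASP shDHPS panel Plk4 (-1.08) lies at one end and Bysl (0.79) at the other.

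In ASP shDHPS the ratio differences varied with base composition. Across the 54 genes, the difference from ASP shSCR had a Spearman rho of 0.62 with the GC content of the principal coding transcript, and across 13376 counted genes rho was 0.50. The genes share the same 16 libraries and are not independent replicates, so these are descriptions. The 41 members with a positive difference had a median GC content of 54.98% and the 13 with a negative one 44.68%. All 54 genes had a median GC content of 53.32%, against 50.62% for the 13376. Whether GC content had a part in the ratio differences through the chemistry of the libraries was not tested.

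**Figure D4:**
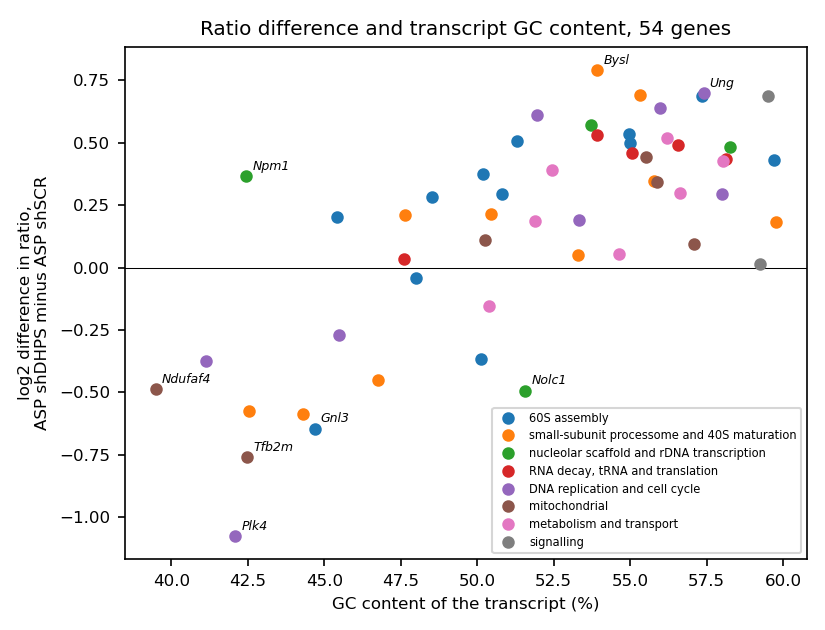
Difference in log2 ratio between ASP shDHPS and ASP shSCR (vertical axis) against the GC content of the transcript in percent (horizontal axis) for the 54 genes, coloured by role. Genes with a negative difference lie mostly at the left, with a median of 44.68% GC against 54.98% for the others.

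Coding length was described in the same way, and rho with the ASP shDHPS ratio difference was -0.03 across the members and -0.12 across the 13376 genes. The median coding length of the members was 1474.5 bases, against 1347 over the 13376 genes, and rho between coding length and the mean log2 ratio was 0.20 across the members and 0.18 across all, beside -0.09 and -0.18 for GC content with that mean ratio. The 9 members lower in polysomes in any condition had a median coding length of 1119 bases and the 27 higher in all 4 conditions one of 1740 bases.

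Levels within a fraction were compared last. In the sub-polysomal libraries, NoASP shSCR against ASP shSCR gave 0 of 54 members, where 0% of all genes passed, ASP shGRIN2D gave 0, where 0.315% passed, ASP shDHPS gave 0, where 1.41% passed, and ASP shDHPS against ASP shGRIN2D gave 0, where 0.726% passed. Members with an unadjusted p under 0.05 numbered 1, 7, 11 and 9 (all genes 4.91%, 11%, 16% and 10.7%). In the polysomal libraries the same comparisons gave 0 members each, where 0%, 0.0169%, 0.169% and 0.0845% of all genes passed, and 2, 2, 17 and 6 members had an unadjusted p under 0.05 (all genes 7.75%, 9.06%, 16.4% and 9.4%). When 1 of the 16 pellets was left out, the genes called for ASP shDHPS against ASP shSCR varied. In the sub-polysomal fraction they ran from 80 (0.451%, without ASP shSCR replicate 2) to 370 (2.08%, without ASP shSCR replicate 3). In the polysomal fraction they ran from 0 to 304 (1.71%, without ASP shSCR replicate 3). The 0 was found without ASP shSCR replicate 2 and also without ASP shDHPS replicate 1 or 3. By DESeq2, 0 members passed for NoASP shSCR in either fraction, where 1 gene did in each, and 0 for ASP shGRIN2D, where 231 of 12922 sub-polysomal (1.79%) and 69 of 13943 polysomal genes (0.495%) did. By the same test, for ASP shDHPS against ASP shSCR 2 (3.7%) passed in the sub-polysomal fraction, where 652 of 13953 genes (4.67%) did, and 4 (7.41%) in the polysomal fraction, where 554 of 12916 (4.29%) did. With replicate number added to the edgeR fit as a block across conditions, 4 (7.41%) and 8 members (14.8%) passed in those fractions. Of all genes, 758 (4.27%) and 405 (2.28%) did.

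The largest group of unadjusted differences was that of polysomal levels in ASP shDHPS, where 14 of the 17 were higher. The median polysomal difference of the 54 genes from ASP shSCR was 0.25 there, with 41 positive. Over the 11046 genes it was -0.04, with 46.5% positive. The members' median was 0.15 in NoASP shSCR and 0.12 in ASP shGRIN2D, beside -0.005 and -0.03 over the 11046 genes. Without the ASP shSCR pellet that stood apart, the members' 3 medians were 0.359, 0.147 and 0.087 in the same order. Leaving out each pellet in turn, they ran from 0.101 (without ASP shSCR replicate 2) to 0.386 (without ASP shDHPS replicate 2), from 0.037 (without ASP shSCR replicate 2) to 0.274 (without NoASP shSCR replicate 2), and from -0.03 (without ASP shGRIN2D replicate 4) to 0.186, so that the last changed sign.

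Nop16, a pre-60S factor, had the smallest p of these, and its polysomal levels were 43.3, 62.7, 76.0 and 76.6 CPM in ASP shSCR and 115.6, 100.6, 115.2 and 107.3 CPM in ASP shDHPS. The groups did not overlap, with a log2 difference of 0.72 ± 0.18 (edgeR adjusted p = 0.099). Wdr74, a cofactor of pre-60S remodelling, was at 56.7, 56.9, 85.9 and 81.2 CPM and at 140.4, 92.7, 122.3 and 119.2 CPM, a difference of 0.71 ± 0.20 (edgeR adjusted p = 0.114). Mrto4, a ribosomal stalk assembly factor, was at 78.8, 100.8, 113.9 and 119.8 CPM and at 164.5, 137.2, 159.5 and 161.9 CPM. Its groups did not overlap either, and it did not pass by edgeR. Nop16, Wdr74 and Mrto4 passed by DESeq2 (adjusted p = 0.00705, 0.0251 and 0.0305), where 554 of 12916 genes (4.29%) did.

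Of the members, Plk4 had the lowest polysomal level in ASP shDHPS relative to ASP shSCR. It was at 44.2, 70.6, 42.3 and 56.8 CPM in ASP shSCR and at 18.4, 44.5, 22.0 and 31.9 CPM in ASP shDHPS. The ASP shSCR range of Plk4 held 1 of those ASP shDHPS libraries. Its sub-polysomal levels of 76.3, 91.4, 113.1 and 111.8 CPM and of 122.2, 128.2, 86.9 and 100.2 CPM overlapped.

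In the sub-polysomal fraction of ASP shDHPS, Utp20 was at 23.6, 22.1, 23.0 and 21.1 CPM, above the 12.6, 8.80, 18.0 and 16.8 CPM of ASP shSCR, with a log2 difference of 0.67 ± 0.20 (edgeR adjusted p = 0.0802). Nolc1 was at 40.4, 41.8, 64.8 and 62.4 CPM against 38.9, 18.4, 42.7 and 26.8 CPM, a difference of 0.72 ± 0.21 (edgeR adjusted p = 0.083) with overlapping libraries. In polysomes Nolc1 was at 130.7, 89.3, 133.0 and 172.1 CPM against 88.0, 52.7, 149.1 and 184.5 CPM, which overlapped throughout. In the sub-polysomal fraction of the same comparison, 5 of the 10 epithelial markers were lower (Krt7, Krt8, Krt14, Krt18 and Krt19), with a median over the 10 of -0.64, and the part of this shift in the members' levels was not tested.

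For Grin2d silencing the smallest sub-polysomal p values belonged to Plk1 (-0.50 ± 0.18, edgeR adjusted p = 0.279) and Tfb2m (0.44 ± 0.17, edgeR adjusted p = 0.318), and the smallest polysomal ones to Imp4 (-0.41 ± 0.16, edgeR adjusted p = 0.391) and Sord (-0.84 ± 0.36, edgeR adjusted p = 0.471). Without aspartate they belonged to Mcm4 (0.41 ± 0.18, edgeR adjusted p = 0.848) and Wdr43 in the sub-polysomal fraction, and to Sord (-1.08 ± 0.36, edgeR adjusted p = 0.373) and Cdk4 (-0.49 ± 0.21, edgeR adjusted p = 0.531) in polysomes. Polysomal Sord was at 57.9 CPM in ASP shSCR replicate 1 and at 13.5 to 22.4 CPM in the other 3, and without that pellet its differences were -0.30 in NoASP shSCR and -0.08 in ASP shGRIN2D.

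Imp4 had the smallest p of the members between the knockdowns. Its polysomal levels were 69.0, 86.9, 97.8 and 87.9 CPM in ASP shSCR, 87.9, 81.6, 87.4 and 75.4 CPM in NoASP shSCR, 67.1, 76.5, 60.9 and 64.7 CPM in ASP shGRIN2D, and 113.4, 114.2, 130.0 and 101.7 CPM in ASP shDHPS. All 4 ASP shDHPS libraries lay above every other polysomal library. The difference between ASP shDHPS and ASP shGRIN2D was 0.78 ± 0.16 on the log2 scale (edgeR adjusted p = 0.0703), and without ASP shSCR replicate 1, which enters this fit through the shared estimate of spread, it passed (edgeR adjusted p = 0.0367). By DESeq2 it passed as well (adjusted p = 4.01e-05), as did 204 of 13943 genes (1.46%). Slc19a1, the reduced folate carrier, had the second smallest p, at 44.8, 41.0, 39.2 and 35.3 CPM in ASP shDHPS and 29.4, 26.1, 21.1 and 33.0 CPM in ASP shGRIN2D, a difference of 0.56 ± 0.20 (edgeR adjusted p = 0.338) with no overlap. In the sub-polysomal fraction the smallest p values of this comparison belonged to Mcm5 (0.49 ± 0.17, edgeR adjusted p = 0.231) and Slc29a2, a nucleoside transporter (0.67 ± 0.23, edgeR adjusted p = 0.238).

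**Figure D5:**
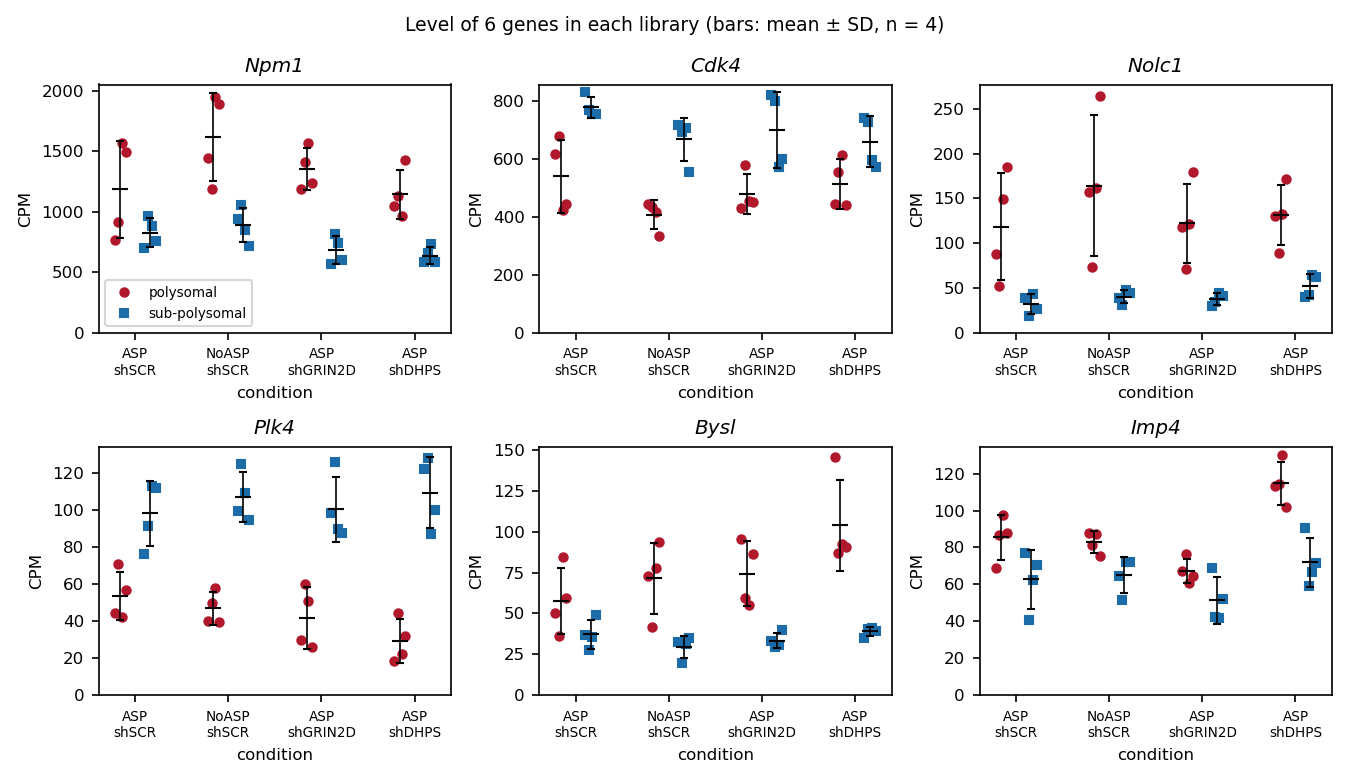
Level in CPM (vertical axis) of Npm1, Cdk4, Nolc1, Plk4, Bysl and Imp4 in each polysomal and sub-polysomal library of the 4 conditions, with mean and SD (n = 4). Imp4 in ASP shDHPS polysomes, at 101.7 to 130.0 CPM, lies above the other polysomal groups, while the Npm1 and Cdk4 groups overlap.

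Per length, Npm1 and Cdk4 were the most abundant sub-polysomal members, with means of 465 and 341 CPM per kilobase of transcript, and in polysomes the means were 811 and 236. The lowest were Dusp2, a phosphatase gene (0.645 sub-polysomal and 0.726 polysomal), and Map3k6 (1.26 and 2.25). Polysomal Npm1 ran from 769.7 to 1566 CPM in ASP shSCR and from 968 to 1426 CPM in ASP shDHPS. Polysomal Cdk4 ran from 421.9 to 677.4 CPM and from 440.8 to 613.2 CPM, so that both overlapped between those conditions.

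Myc passed the test in none of the comparisons between conditions. Its polysomal levels were 75.6, 41.2, 116.8 and 127.2 CPM in ASP shSCR and 173.4, 112.4, 154.8 and 175.4 CPM in ASP shDHPS, with overlap, and the log2 difference of 0.72 ± 0.35 did not pass (edgeR adjusted p = 0.306). In the sub-polysomal fraction the difference was 0.50 ± 0.20 (edgeR adjusted p = 0.228). Its ratio differences were 0.49 ± 0.31 for NoASP shSCR, 0.29 ± 0.31 for ASP shGRIN2D and 0.38 ± 0.31 for ASP shDHPS. The 76 other biogenesis factors had median ratio differences of 0.18, 0.21 and 0.08 in those comparisons and -0.14 for ASP shDHPS against ASP shGRIN2D, and none of the 76 passed.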

How the data were processed

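Polysome profiling and RNA sequencing of 32 libraries, from 4 conditions with 4 spheroid pellets each, were analysed from deposited tables. The authors deposited gene counts that were Salmon estimates rounded to whole numbers, after Trim Galore 0.6.6, FastQC 0.11.9, STAR 2.6.1 and Salmon 1.4.0 on the mouse build GRCm39, per the submitters' processing notes and methods. Genes without expression in at least 3 of 4 replicates of any group had been removed by the authors. Libraries held 12870563 to 25639437 counts. Standard errors come from the fits over pellets and not from counting error alone. The deposited set file named the members. The deposited tables of the authors' own comparisons hold differences between fractions and conditions, p and q values and gene set scores from DESeq2 1.34.0 and set tests, and they were not used.

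All genes were fitted with edgeR 4.0.16 (limma 3.58.1, R 4.3.3) by the quasi-likelihood test with TMM normalization and no filter. The ratio model used 32 libraries with 1 coefficient per pellet and 1 polysomal to sub-polysomal ratio per condition. Levels were fitted per fraction on 16 libraries. P-values were adjusted by Benjamini and Hochberg over all 17757 genes, with a threshold of 0.05. CPM used TMM library sizes and log2 values a prior count of 2. The 4 pellets of a condition were stated to be independent, but come from 1 cell population per shRNA. The comparisons with ASP shSCR share its samples. No 2 libraries agreed within sampling noise, with chi-square per gene of 26.8 or more in the 48 replicate pairs. The fits were tested on simulated data whose changes were larger than any member's difference between conditions. That test does not show whether changes of the members' size would be found. Alternatives were DESeq2 1.42.0 size factors and Wald test, a filter on low counts (minimum 10), a replicate block, no pellet term, fits of only the conditions compared, and leaving out each pellet.

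Named genes were 20 role anchors, up to 3 members per direction with the largest change past the threshold or else the 2 smallest p-values, members with the highest and lowest ratio or count, and context genes. Genes named outside this rule were chosen after their values were seen. The members, roles and other gene lists were chosen with earlier results of these data known. Of the lists, Polr1g, Twistnb, Znrd1, Mycn, Xist, Meg3 and 4 endothelial, 4 fibroblast and 3 leukocyte markers were not among the table's symbols. Transcript length and GC content came from GENCODE M21 and promoters from RefSeq, both on GRCm38, joined by gene identifier or symbol and not by position, since the counts were made on GRCm39.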

Additional observations from a re-analysis of the deposited data

Results flagged for a closer look

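Within groups of 4 pellets, 14 of 212 groups tested held 1 value far from the other 3 by Dixon's 95% criterion, where chance gives about 10.6. The values concern log2 polysomal to sub-polysomal ratios, except the last.

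In ASP shDHPS, replicate 1 was apart for Bysl, at 2.054 against 1.103 to 1.21, for Farsa, at 2.637 against 1.671 to 1.783, and for Ndufaf4, at -2.432 against -1.249 to -1.143. In the same condition Gnl3 was at -0.006577 in replicate 3 against 0.6888 to 0.7757, Mcm4 at 1.926 in replicate 4 against 1.239 to 1.354, and Nop16 at 2.07 in replicate 2 against 1.659 to 1.713.

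In ASP shSCR, Bysl was at 1.239 in replicate 3 against 0.2874 to 0.45, Dctpp1 at -0.2872 in replicate 2 against -1.029 to -0.9724, and Hk2 at -0.5708 in replicate 2 against 0.3182 to 0.4723. In NoASP shSCR, Aimp2 was at 1.526 in replicate 3 against 1.881 to 1.937.

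In ASP shGRIN2D, Map3k6 was at -0.6525 in replicate 2 against 0.8911 to 1.109, Npm1 at 0.7943 in replicate 2 against 1.035 to 1.083, and Sord at -1.644 in replicate 3 against -0.7419 to -0.5767. The polysomal level of Cdk4 was 578.2 CPM in replicate 2 of that condition against 431.4 to 453.6 CPM in the other 3.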

How the results depend on the processing

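The number of members higher in polysomes stayed within 1.5 times under every alternative, and without 1 pellet it ran from 24 to 31 in ASP shSCR, 32 to 35 in NoASP shSCR, 29 to 34 in ASP shGRIN2D and 33 to 38 in ASP shDHPS. The number lower ran from 4 to 8, 7 to 8, 6 to 8 and 3 to 7, the 3 being without ASP shDHPS replicate 2. Of 144 single-gene ratios within a condition, none reversed a call over 3024 alternative values, 27 values lost the call and 25 gained it. The calls of Sord in ASP shDHPS were lost without any 1 of its 4 pellets.

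Between conditions the calls depended on the test. With the DESeq2 Wald test, ASP shDHPS against ASP shSCR had 4 members past the threshold for the ratio (all genes 664, 6.11%, against 37 with edgeR), 2 for the sub-polysomal level (Nolc1 and Utp20; all genes 652, 4.67%) and 4 for the polysomal level (Mrto4, Nop16, Slc19a1 and Wdr74; all genes 554, 4.29%), and ASP shDHPS against ASP shGRIN2D had 1 for the polysomal level (Imp4; all genes 204, 1.46%). The cause was not tested. With the filter on low counts 188 genes passed for the ratio in ASP shDHPS, and with DESeq2 size factors, no pellet term or only the conditions compared 0 did, with 0 members in each. Without 1 pellet that count of all genes ran from 0, as without ASP shSCR replicate 4 or ASP shDHPS replicate 1, to 159 without ASP shGRIN2D replicate 1, with 0 members in each. Without 1 pellet, sub-polysomal levels of ASP shDHPS against ASP shSCR had 0 to 4 members, the 4 (7.41%; Gnl3, Ndufaf4, Nolc1 and Utp20) without ASP shSCR replicate 3, where 370 of all genes (2.08%) passed, and polysomal levels of ASP shDHPS against ASP shGRIN2D had 0 to 1, the 1 (Imp4) without ASP shSCR replicate 1, where 36 of all genes (0.203%) passed. Over the same fits the genes called for ASP shGRIN2D against ASP shSCR ran from 23 to 64 in the sub-polysomal and 0 to 98 in the polysomal fraction, and those for ASP shDHPS against ASP shGRIN2D from 80 to 176 and 2 to 36.

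The replicate block across conditions gave 1 member (Plk4) for the ratio in ASP shDHPS against ASP shSCR, where 231 of all genes (1.3%) passed. It gave 4 (7.41%) for the sub-polysomal level (Gnl3, Nolc1, Pprc1 and Utp20), where 758 (4.27%) passed, and 8 (14.8%) for the polysomal level (Grwd1, Mybbp1a, Nop16, Nop2, Plk4, Pprc1, Rrp12 and Wdr74), where 405 (2.28%) passed. Against ASP shGRIN2D it gave 1 sub-polysomal (Mcm5, beside 291 of all genes, 1.64%) and 1 polysomal (Imp4, beside 103, 0.58%) member. Same-numbered samples of different conditions correlated above 0.1 in 14 of 24 pairs for the ratio, 18 of 24 for the sub-polysomal and 16 of 24 for the polysomal level, and 10, 14 and 11 of 16 samples correlated best with their own number. The median correlation was 0.17, 0.25 and 0.36 for same-numbered pairs and -0.05, -0.08 and -0.11 for pairs with different numbers. Not every same-numbered pair correlated and the labels name no shared day or batch, so the block was used as an alternative only.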
